A study of Mus musculus with 2 samples.

Results

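The Runx genes, their partner Cbfb and the Ikaros family genes were described in granulocyte-monocyte progenitors, the bone marrow stage from which neutrophils and monocytes form. The 9 genes were chosen by symbol, by a list that uses no threshold on their values: Runx1, Runx2, Runx3, Cbfb, Ikzf1, Ikzf2, Ikzf3, Ikzf4 and Ikzf5. They are 9 of the 43346 genes in the deposited tables, and their 65 transcripts are 65 of 103639. Primary cells came from adult male mice of strain C57BL/6J, 5 to 6 weeks old, and the labels name no genetic change or treatment. The series is 1 group of 2 libraries of total RNA depleted of ribosomal RNA. The labels call the libraries biological replicates 1 and 2 but list the same 1 donor record for both, so an SD over them may be partly technical. No condition was compared and no p-value is given.

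RUNX proteins bind DNA through a Runt domain and do so stably as a dimer with the non-DNA-binding subunit CBFβ. Each mammalian Runx gene has a distal and a proximal promoter, and the transcripts from them start with different coding sequence. Runx1 is needed for the emergence of blood stem cells, Runx2 for bone formation, and Runx3 for parts of T cell and sensory neuron development. Ikaros proteins carry an amino-terminal group of zinc fingers that binds DNA and a carboxy-terminal group through which family members dimerise. Splicing of Ikzf1 that removes amino-terminal fingers gives proteins that dimerise but bind DNA poorly. Ikzf1 and Ikzf3 are best known from lymphocyte development.

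The coding starts of the Runx genes are shown because the transcripts below differ in them. They were read from GENCODE M21 transcripts on mm10 and are printed from the start codon, with the bases of that start alone in lower case and the first 30 bases shared by both starts in capitals. In all 3 genes the distal start (the one further 5′) added 58 coding bases and the proximal one 16.
Runx1-201, distal, minus strand, chr16:92695708-92825646 across introns: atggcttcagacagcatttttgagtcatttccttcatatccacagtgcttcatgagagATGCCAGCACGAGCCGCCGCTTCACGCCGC
Runx1-202, proximal, minus strand, chr16:92695708-92695753: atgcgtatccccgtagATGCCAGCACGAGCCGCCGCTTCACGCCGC
Runx2-202, distal, minus strand, chr17:44735589-44814226 across introns: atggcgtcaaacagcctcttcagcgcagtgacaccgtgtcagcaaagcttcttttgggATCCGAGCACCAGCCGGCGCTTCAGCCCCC
Runx2-203, proximal, minus strand, chr17:44735589-44735634: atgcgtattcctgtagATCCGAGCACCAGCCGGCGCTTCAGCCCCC
Runx3-201, distal, plus strand, chr4:135121106-135152817 across introns: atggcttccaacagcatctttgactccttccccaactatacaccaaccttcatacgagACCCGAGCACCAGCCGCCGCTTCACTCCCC
Runx3-202, proximal, plus strand, chr4:135152772-135152817: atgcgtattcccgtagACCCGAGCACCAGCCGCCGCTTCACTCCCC

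The coding sequences of the second zinc finger of the Ikaros proteins are shown because it was the finger that did not vary among Ikzf1 to Ikzf4, with the Ikzf5 finger most like it for comparison. They were also read from GENCODE M21 on mm10, and capitals mark the codons of the zinc-binding cysteines and histidines. Over the 21 residues encoded, the finger was identical in Ikzf1, Ikzf2, Ikzf3 and Ikzf4, while the Ikzf5 finger, the first in its protein, shared 6 residues.
Ikzf1-204, plus strand, chr11:11754024-11754086: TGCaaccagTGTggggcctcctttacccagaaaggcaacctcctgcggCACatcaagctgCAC
Ikzf2-201, minus strand, chr1:69570581-69570643: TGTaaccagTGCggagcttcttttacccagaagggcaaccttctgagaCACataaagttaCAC
Ikzf3-201, minus strand, chr11:98488940-98489002: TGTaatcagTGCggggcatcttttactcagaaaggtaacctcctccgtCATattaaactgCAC
Ikzf4-201, minus strand, chr10:128640229-128640291: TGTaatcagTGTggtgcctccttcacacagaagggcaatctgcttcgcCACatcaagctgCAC
Ikzf5-201, first finger, minus strand, chr7:131393759-131393821: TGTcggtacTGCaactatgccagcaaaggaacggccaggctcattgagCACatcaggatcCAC

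Replicate 1 held 49473848 and replicate 2 held 44260902 expected counts. Levels are given in TPM as deposited, a unit per transcript length scaled over all features. The share of nuclear protein-coding genes was 19.1% in replicate 1 and 22.8% in replicate 2, so TPM was also rescaled to these genes alone where members are ordered or set between libraries. All 8 progenitor markers, among them Kit, Cd34 and Mpo, were at or above 1 TPM in both libraries. None of 6 B cell markers reached 1 TPM in either library, 5 (Cd79a, Pax5, Ebf1, Ms4a1 and Rag1) were at 0 counts in both, and the summed level of the list was 0 and 0.02 TPM in replicates 1 and 2. None of 9 T and NK cell markers reached it either, Cd3e, Cd3g, Cd8a and Gata3 were at 0 counts in both, and the list summed to 0.49 and 0.42 TPM. The lymphoid gene Cd79b, on neither of these lists, was at 4.69 and 7.43 TPM. In both libraries, none of 5 stem cell markers was at or above 1 TPM, and 1 of 6 was for each of megakaryocytes (Itga2b), erythroid cells (Car1) and dendritic cells (Tcf4). In bulk RNA a gene in fewer cells and a gene with less RNA per cell cannot be told apart.

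Of the 9 genes, 7 were at or above 1 TPM in both libraries, and Ikzf3 and Ikzf4 had no counts in either. Among all 21461 nuclear protein-coding genes, 40.8% were at or above 1 TPM in both. Cbfb was the highest member, Ikzf1 and Runx1 came next, and Ikzf5, Ikzf2, Runx2 and Runx3 followed in that order. On rescaled TPM, 6 of the 8 neighbouring pairs in this order had ranges that did not overlap. The exceptions were Ikzf1 with Runx1, and Ikzf3 with Ikzf4. Ikzf2 and Runx2 came close, with a lowest Ikzf2 value of 13.4 and a highest Runx2 value of 12.6. So did Runx2 and Runx3, at 8.19 and 7.45.

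**Figure D1:**
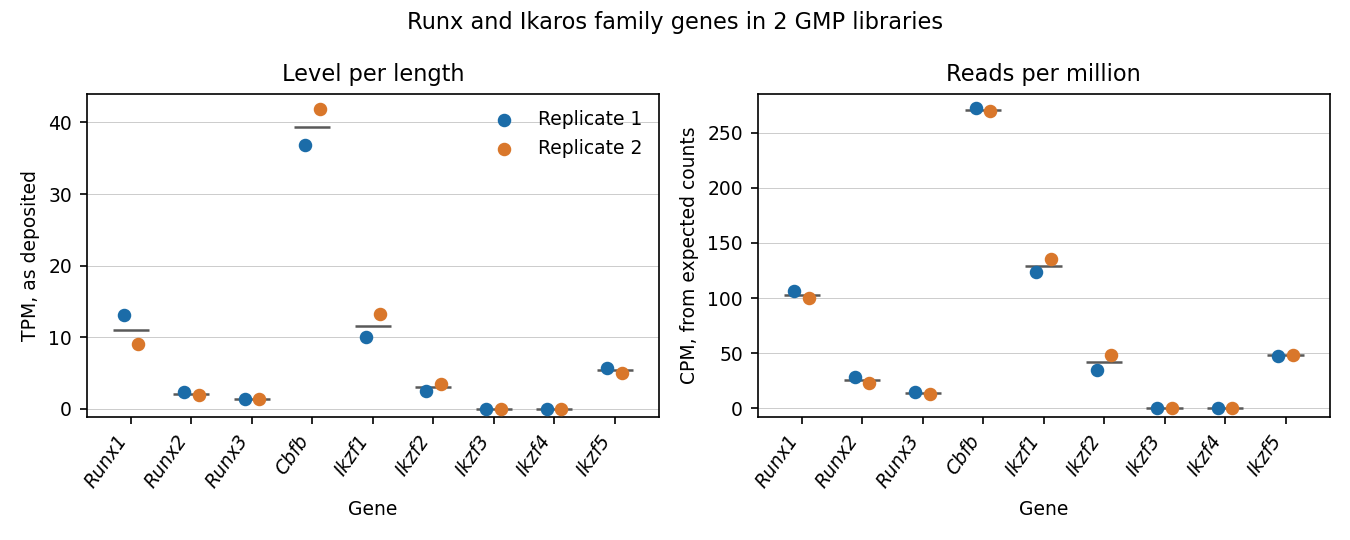
Levels of the 9 genes in both libraries, as deposited TPM on the left and as CPM on the right; each point is 1 library and each line the mean of the 2. Cbfb stands above the others at 36.8 and 42.0 TPM, Ikzf3 and Ikzf4 lie at 0, and Runx1 differs more between the libraries in TPM than in CPM.

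Runx1 lies on chromosome 16 at 92601466 to 92826149 of mm10, minus strand. Its level was 13.1 and 9.07 TPM in replicates 1 and 2, a mean of 11.1 ± 2.82 (SD, n = 2), from 5267 and 4425 expected counts. That mean ranked at the 85.3 percentile of nuclear protein-coding genes. The libraries were closer in CPM, expected counts scaled to the library total, at 106.5 and 99.98, a mean of 103.2 ± 4.59.

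Runx2, on chromosome 17 at 44495987 to 44814797, minus strand, was at 2.41 and 1.87 TPM, a mean of 2.14 ± 0.382 (SD, n = 2), from 1404 and 1012 counts. Runx3, on chromosome 4 at 135120652 to 135177990, plus strand, was at 1.42 and 1.37 TPM, a mean of 1.40 ± 0.0354, from 752 and 561 counts. Both lay above 1 TPM in each library, where the median of all nuclear protein-coding genes was 0.17 and 0.20 TPM in replicates 1 and 2. On rescaled TPM, Runx2 had 12.6 and 8.19 and Runx3 had 7.45 and 6.00, so their ranges did not overlap but came close. Markers of osteoblasts and stroma, cells known for Runx2, summed to 1.18 and 4.44 TPM in replicates 1 and 2, with none of 8 at 1 TPM in both libraries and the osteoblast genes Sp7, Bglap, Alpl and Col1a1 at 0 counts in both. Most of these sums came from Spp1, at 0.46 and 3.51 TPM, and Pdgfrb, at 0.72 and 0.89 TPM. Their part in the Runx2 level was not tested.

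Runx1 made up 77.3% of the summed Runx TPM in replicate 1 and 73.7% in replicate 2. Runx2 held 14.3% and 15.2%, and Runx3 8.41% and 11.1%. The log2 ratio of Runx1 over Runx2 plus Runx3 was 1.77 in replicate 1 and 1.49 in replicate 2, a mean of 1.63 ± 0.20 (SD, n = 2), or 3.41-fold and 2.80-fold. Runx1 was thus the highest Runx gene in each library, by a margin several times the spread between the libraries. The 3 proteins are close relatives, with 67.2% of aligned residues identical between Runx1-201 and Runx2-202, 67.3% between Runx1-201 and Runx3-201, and 69.9% between Runx2-202 and Runx3-201.

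Cbfb, on chromosome 8 at 105170674 to 105217989, plus strand, was at 36.8 and 42.0 TPM, a mean of 39.4 ± 3.62 (SD, n = 2), from 13456 and 11932 counts. It ranked at the 96.1 percentile. In CPM the libraries were at 272 and 269.6, so they were close by reads as well. Cbfb exceeded the sum of the 3 Runx genes by 1.12 on the log2 scale in replicate 1 and 1.77 in replicate 2, a mean of 1.45 ± 0.46, or 2.18-fold and 3.41-fold. The partner gene was thus above its 3 DNA-binding partners together in both libraries, with a size that differed between them. Over transcripts of at least 1000 nt alone, an alternative chosen after these values were seen, the mean was 1.71 ± 0.16.

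Ikzf1, which encodes Ikaros, lies on chromosome 11 at 11685003 to 11772926, plus strand. It was at 10.04 and 13.2 TPM in replicates 1 and 2, a mean of 11.6 ± 2.22 (SD, n = 2), from 6108 and 5976 counts, and ranked at the 86.0 percentile. Ikzf2, which encodes Helios, on chromosome 1 at 69531214 to 69687245, minus strand, was at 2.56 and 3.47 TPM, a mean of 3.02 ± 0.644, from 1735 and 2135 counts. Both were higher in replicate 2 than in replicate 1 in TPM. In unscaled counts Ikzf2 alone was, while in CPM Ikzf1 was too, at 123.5 and 135.0. Ikzf5, which encodes Pegasus, on chromosome 7 at 131388652 to 131410521, minus strand, was at 5.73 and 5.04 TPM, a mean of 5.39 ± 0.488. Its expected counts were 2371.57 and 2143, so in replicate 1 some of its reads were divided with another feature.

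Ikzf3, which encodes Aiolos, on chromosome 11 at 98464902 to 98546031, minus strand, had 0 counts in both libraries. With 0 counts, up to 3 could have been missed by chance, equal to 0.0606 CPM or 0.0092 TPM in replicate 1 and 0.0678 CPM or 0.012 TPM in replicate 2. Ikzf4, which encodes Eos, on chromosome 10 at 128630843 to 128645991, minus strand, also had 0 counts, which allows up to 0.0122 and 0.0161 TPM. These limits cover counting error only, and the deposited credibility intervals reached further, up to 0.062 and 0.0849 TPM for Ikzf3 and 0.28 and 0.446 TPM for Ikzf4. Neither gene was detectable at this depth.

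Ikzf1 held 54.8% of the summed Ikaros family TPM in replicate 1 and 60.8% in replicate 2. Ikzf5 held 31.3% and 23.2%, and Ikzf2 13.97% and 15.998%. The log2 ratio of Ikzf1 over the other 4 genes together was 0.28 and 0.63, a mean of 0.45 ± 0.25 (SD, n = 2), or 1.21-fold and 1.55-fold. With a pseudocount of 1 TPM on each gene the mean was 0.013 ± 0.24, and the sign differed between the libraries. Without one, Ikzf1 was above the rest of its family in each library, by a smaller margin than Runx1 among the Runx genes. In protein, Ikzf1-204 was identical to Ikzf2-201 at 57.0% of aligned residues, to Ikzf3-201 at 56.9%, to Ikzf4-201 at 56.1% and to Ikzf5-201 at 29.3%.

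The transcripts of these genes were then compared within each gene. Of the 65 deposited transcripts, 33 had counts in either library and 17 in both, and none of the transcripts of Ikzf3 or Ikzf4 had any. Shares are the deposited percent of the gene's TPM unless counts are named. Transcripts were grouped where their annotated starts lay within 500 bases of each other.

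Runx1-201, the distal transcript of 465 residues, was the leading Runx1 transcript by mean TPM. It held 28.3% of the gene's TPM in replicate 1 and 44.9% in replicate 2, but 57.5% and 58.1% of its expected counts, 3030 and 2569. Its share of counts was nearly equal in the libraries while its share of TPM was not. Runx1-202, the proximal transcript of 387 residues, held 4.57% and 21.3%, from 392.3 and 977.7 counts. The deposited credibility intervals of its TPM did not overlap, at 0.474 to 0.713 in replicate 1 and 1.70 to 2.05 in replicate 2. Runx1-202 has 3 exonic bases and 1 intron that no other Runx1 transcript shares.

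All Runx1 transcripts of the distal start together held 71.4% of TPM in replicate 1 and 61.5% in replicate 2, a mean of 66.5 ± 6.97% (SD, n = 2). By counts they held 68.8% and 66.9%, a mean of 67.8 ± 1.33%. The proximal group held 17.2% and 34.3% of the TPM, and 23.9% and 32.8% of the counts. By these estimates the distal group was thus the larger one in both libraries on both scales. Of its models, Runx1-201 has 2265 exonic bases of its own and ends at 92601466. That is further 3′ than Runx1-202, which ends at 92603656. Reads in that 3′ end can go to Runx1-201 alone, whichever start they came from. Runx1-203, of 451 residues and named after its values were seen, begins further 3′ but uses the proximal start codon, and had 387 and 0 counts, or 11.4% and 0% of the TPM. Joined with it, a grouping chosen after seeing the data, the proximal group held 28.6% and 34.3% of the TPM, and 31.2% and 32.8% of the counts, so the libraries then lay closer. Runx1-206, a retained-intron transcript of the proximal group, held 12.6% and 13.0%, and Runx1-207, a processed transcript of the distal group, 11.2% and 16.6%.

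Runx1-204, a distal transcript model of 336 nt, held 31.9% of the gene's TPM in replicate 1, or 4.17 TPM, and 0% in replicate 2. It did so from 96.0 expected counts, 1.82% of the counts of Runx1. A transcript this short has a small effective length, so few reads count for a large TPM. The level of Runx1 summed over its transcripts of at least 1000 nt, an alternative chosen after these values were seen, was 8.90 and 8.69 TPM in replicates 1 and 2. On that sum the libraries differed less than on the whole gene, at 13.1 and 9.07 TPM.

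By the deposited estimates, Runx2 differed from the other Runx genes in its leading start. Runx2-203, the proximal transcript of 514 residues, held 42.3% of the gene's TPM in replicate 1 and 54.2% in replicate 2, from 924 and 709 counts. Runx2-202, the distal transcript of 528 residues, held 22.5% and 19.9%, from 448 and 237 counts. The deposited credibility intervals of Runx2-202 overlapped between the libraries, at 0.345 to 0.724 TPM and 0.163 to 0.527 TPM. Those of Runx2-203 and Runx2-202 lay apart within each library, with Runx2-203 at 0.826 to 1.18 TPM and 0.825 to 1.19 TPM. By these intervals the proximal transcript was above the distal one in each library. The distal group held 22.4% and 19.9% of the TPM, a mean of 21.1 ± 1.78% (SD, n = 2), and 31.9% and 23.4% of the counts. The proximal group held 42.3% and 77.4% of the TPM, and 65.8% and 76.5% of the counts, so it was the larger in both libraries on both scales.

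The remaining TPM of Runx2 came from models with few reads. Runx2-205, a model of 440 nt, held 35.2% in replicate 1 and 2.83% in replicate 2, from 32.2 and 1.35 counts. Runx2-210, whose model begins at the proximal start codon, held 0% and 23.1%, from 0 and 65.4 counts, and has no exonic base of its own. Each was thus large in 1 library and small or absent in the other. Over transcripts of at least 1000 nt, Runx2 was at 1.56 and 1.81 TPM.

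Runx3 was read almost wholly as its distal transcript. Runx3-201, of 423 residues, held 99.0% of the gene's TPM in replicate 1 and 100% in replicate 2, from 748 and 561 counts. Runx3-202, the proximal transcript of 409 residues, had 3.52 and 0 counts. By these shares the leading start was distal in Runx1 and Runx3 and proximal in Runx2, in each of the libraries. In Runx3, as in Runx1, the distal model reaches further 3′, to 135177990 against 135176181 for Runx3-202. In Runx2 both models end at 44604001, with 472 exonic bases of its own in Runx2-203 and 0 in Runx2-202. The shares thus rest on unlike bases in the 3 genes, and start use was not measured by start exons alone.

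**Figure D2:**
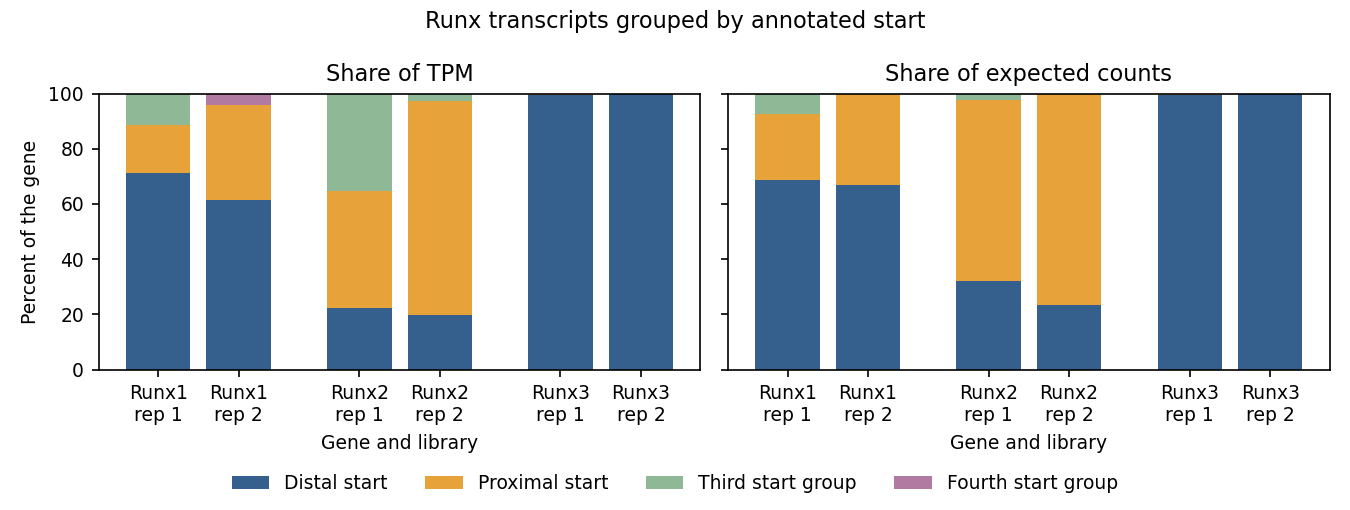
Share of each Runx gene held by transcripts of each annotated start group, as percent of TPM on the left and percent of expected counts on the right, 1 bar per library. The distal group is the largest in Runx1 (71.4% and 61.5% of TPM) and Runx3 (over 99% in each) and not in Runx2 (22.4% and 19.9%), on both scales.

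The promoters of Runx1 are shown because both starts were in use by the deposited estimates. They are the RefSeq windows of 250 bases before a RefSeq start (GRCm38.p6), cut where needed to the bases before the first annotated transcript, which left 175 bases for the distal one. Capitals mark CpG dinucleotides.
Runx1 distal promoter, minus strand, chr16:92826150-92826324: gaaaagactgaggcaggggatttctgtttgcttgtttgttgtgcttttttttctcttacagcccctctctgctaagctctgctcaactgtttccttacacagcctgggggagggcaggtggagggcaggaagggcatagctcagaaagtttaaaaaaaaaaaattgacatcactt
Runx1 proximal promoter, minus strand, chr16:92697330-92697579: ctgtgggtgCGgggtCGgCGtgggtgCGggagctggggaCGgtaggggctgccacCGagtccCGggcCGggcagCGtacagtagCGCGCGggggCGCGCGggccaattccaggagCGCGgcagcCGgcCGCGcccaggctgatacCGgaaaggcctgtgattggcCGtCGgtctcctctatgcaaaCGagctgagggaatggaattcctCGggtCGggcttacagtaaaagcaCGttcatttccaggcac

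The Runx1 distal window of 250 bases had a GC content of 45.6% and 2 CpG, none of them in the bases shown, while the proximal one had 67.6% and 27. Over all 32851 RefSeq promoter windows of this length the medians were 52.4% and 6 CpG. By the deposited estimates, the start with the larger share of Runx1 was thus the one with few CpG. In Runx3 too the start that held nearly all of the gene had fewer CpG, with 8 in the distal window and 38 in the proximal one. In Runx2 the distal window, at 44.8% GC, held 0 CpG, yet the distal start was the smaller one. No window was found for the Runx2 proximal start, so the CpG of its starts could not be compared. Ikzf1 had 44 CpG in the window nearest the start of its leading transcript, Cbfb had 25 and Ikzf5 had 18.

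The RUNX consensus hexamers TGTGGT and TGCGGT were searched on both strands of these windows. The 9 windows found for 6 of the genes (Ikzf2, Ikzf3 and Ikzf4 had none in the table) held TGTGGT in 2, those of the distal starts of Runx2 and Runx3. TGTGGT occurs in 14.0% of all windows and either hexamer in 18.6%, so the share among the members is close to the background. The Ikaros core TGGGAA was in 1 window, that of the Runx3 distal start, against 21.6% of all windows. The Runx3 window, the only one with 2 copies, is printed with both TGTGGT matches, read as ACCACA on this strand, in capitals.
Runx3 distal promoter, plus strand, chr4:135120395-135120644: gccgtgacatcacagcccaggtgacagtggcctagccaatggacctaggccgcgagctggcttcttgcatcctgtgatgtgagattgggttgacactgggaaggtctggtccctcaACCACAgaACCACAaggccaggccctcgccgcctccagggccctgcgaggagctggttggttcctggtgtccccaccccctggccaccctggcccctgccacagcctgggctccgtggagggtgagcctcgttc

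Cbfb was read mainly from 3 coding transcripts. Cbfb-202, of 182 residues, led with 56.3% of the gene's TPM in replicate 1 and 47.1% in replicate 2, a mean of 51.7 ± 6.54% (SD, n = 2). Cbfb-201, of 187 residues, held 21.4% and 25.9%, and Cbfb-203, of 148 residues, 19.4% and 25.1%. Expected counts gave the same order, with 7947 and 5787 for Cbfb-202, 3075 and 3247 for Cbfb-201, and 2375 and 2671 for Cbfb-203. Cbfb-202 and Cbfb-201 have the same coding sequence up to its end, which is printed from GENCODE M21 with the last 30 bases before they diverge in capitals. In Cbfb-202, 31 exonic bases found in no other Cbfb transcript follow the capitals, and its last coding bases are also in Cbfb-201, read there in another frame.
Cbfb-202, plus strand, chr8:105202518-105215923 across introns: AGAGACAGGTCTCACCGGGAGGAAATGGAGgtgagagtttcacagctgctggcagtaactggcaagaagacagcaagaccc
Cbfb-201, plus strand, chr8:105202518-105215969 across introns: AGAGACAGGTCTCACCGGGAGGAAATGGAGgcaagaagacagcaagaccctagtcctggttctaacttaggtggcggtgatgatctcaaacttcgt

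By the deposited estimates, Ikzf1 was read mainly as Ikzf1-204. That model ends at 11772926, further 3′ than Ikzf1-203 at 11772112, and has 814 exonic bases of its own. Reads in that 3′ end can go to Ikzf1-204 alone, whichever fingers their transcript encoded. Ikzf1-201, with 5 patterns, has 0 exonic bases of its own, so the shares below do not measure finger exons alone. Ikzf1-204, of 515 residues with 6 zinc finger patterns in its coding sequence, held 83.8% of the gene's TPM in replicate 1 and 76.5% in replicate 2, from 6045 and 5580 counts. The transcripts with 6 patterns together held 83.8% and 79.3% of the TPM, a mean of 81.5 ± 3.16% (SD, n = 2), and 99.0% and 96.4% of the counts. Ikzf1-202, of 911 nt, encodes 198 residues with 3 patterns, whose place in the amino-terminal or carboxy-terminal group was not determined. It has the start codon of Ikzf1-204, at 11700219, but its model ends at 11761424, well before that of Ikzf1-204 at 11772926. It held 0% and 20.7% of the TPM, from 0 and 213 counts, or 3.56% of the Ikzf1 counts in replicate 2. Its credibility interval was 0 to 0.182 TPM in replicate 1 and 2.20 to 3.09 TPM in replicate 2. A shorter form was thus present in the estimate of 1 library only. Ikzf1-205, an incomplete model of 446 nt named after its values were seen, held 16.2% and 0%, from 63.0 and 0 counts.

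Ikzf2 was divided among more transcripts. Ikzf2-201, of 526 residues with 6 patterns, held 38.7% in replicate 1 and 51.9% in replicate 2, from 1302 and 1827 counts. Ikzf2-203, a retained-intron transcript, held 30.4% and 28.2%, from 224 and 214 counts. Ikzf2-202, of 500 residues with 5 patterns, held 30.1% and 0%, from 204 and 0 counts, with credibility intervals of 0.550 to 0.866 and 0 to 0.0267 TPM. The retained-intron share was thus close in the libraries, while the form with 5 patterns was estimated in replicate 1 alone. Ikzf2-201 has 6823 exonic bases of its own and ends at 69531214, further 3′ than Ikzf2-207 at 69538037. Ikzf2-202 has 105 exonic bases and 1 intron of its own. The shares by number of patterns were thus not measured by finger exons alone.

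Ikzf5-201, of 419 residues with 5 patterns, held 65.9% of its gene in replicate 1 and 88.9% in replicate 2, from 2312 and 2112 counts. Ikzf5-203, of 714 nt with 1 pattern, held 9.40% and 11.1%, from 41.6 and 31.3 counts, and Ikzf5-204, of 261 nt, 24.7% and 0%, from 18.0 and 0 counts. By counts Ikzf5-201 alone held 97.5% and 98.5%. Transcripts under 1000 nt thus held more of the TPM than of the reads in both libraries in 4 genes. They held 31.9% of the TPM of Runx1 in replicate 1 against 1.82% of its counts, 35.3% against 2.29% for Runx2, 16.2% against 1.03% for Ikzf1 and 34.2% against 2.51% for Ikzf5. In replicate 2 they held 4.19% against 0.294% for Runx1, 2.69% against 0.133% for Runx2, 20.7% against 3.56% for Ikzf1 and 11.1% against 1.46% for Ikzf5. In Ikzf2 they held 9.80% of the TPM in replicate 2 against 0.265% of its counts, and in Cbfb 2.80% in replicate 1 against 0.315%. Ikzf2 in replicate 1, Cbfb in replicate 2 and Runx3 in both libraries had 0% on both scales.

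**Figure D3:**
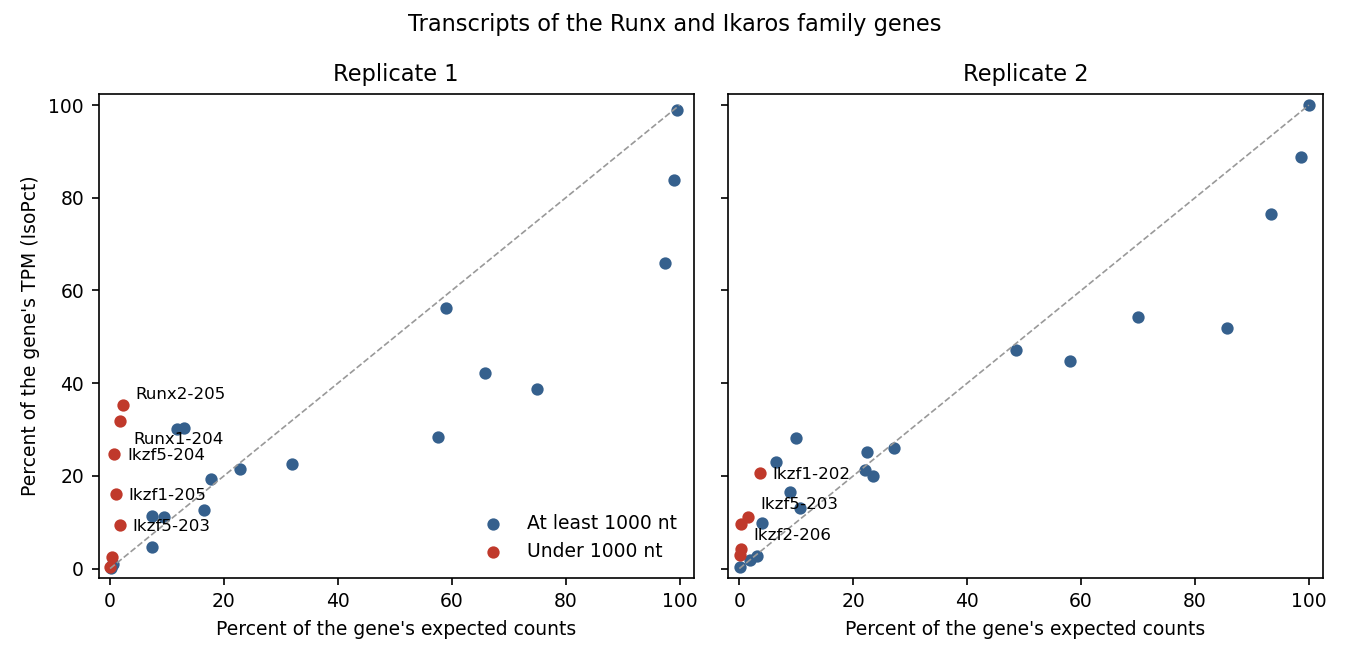
Each transcript's percent of its gene's TPM against its percent of the gene's expected counts, for transcripts of the 7 detected genes with counts in that library, 1 panel per library. Points on the dashed line have equal shares; models under 1000 nt (red) lie above it near the left edge, such as Runx2-205 and Runx1-204 at 35.2% and 31.9% of the TPM in replicate 1.

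The spread between the libraries was also measured by reads alone. The log2 ratio of CPM in replicate 2 over replicate 1 was -0.13 for Runx1, -0.36 for Runx2, -0.31 for Runx3 and -0.06 for Cbfb. In the Ikaros family it was 0.08 for Ikzf1, 0.42 for Ikzf2 and -0.03 for Ikzf5. None of the 7 detected members was beyond 1 in either direction, against 7.9% of the 11981 genes that averaged 1 CPM or more. Each of the 7 averaged over 10 CPM, and among the 8573 genes at that level the share was 1.27%, so 0 of 7 is near the background. The median absolute ratio was 0.23 over the 11981 genes and 0.19 over the 8573.

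On rescaled TPM the same ratio was -0.79 for Runx1, -0.63 for Runx2 and -0.45 for Ikzf5, the 3 members whose ratio shifted most from that in CPM. It was -0.31 for Runx3, -0.07 for Cbfb, 0.13 for Ikzf1 and 0.18 for Ikzf2. TPM divides reads by the deposited effective length, the length over which a gene's reads are spread. A change in that length therefore shifts the TPM ratio by arithmetic. Runx1, Runx2 and Ikzf5 had the largest such changes among the members. Runx1 had an effective length of 2798 bases in replicate 1 and 4366 in replicate 2, a log2 ratio of 0.64. Ikzf5 had 2873 and 3804, a log2 ratio of 0.41, and Runx2 had 4038 and 4835, a log2 ratio of 0.26. Of 8764 protein-coding genes at or above 1 TPM in both libraries, 6.7% differed by more than 0.5, and among the members Runx1 alone did.

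**Figure D4:**
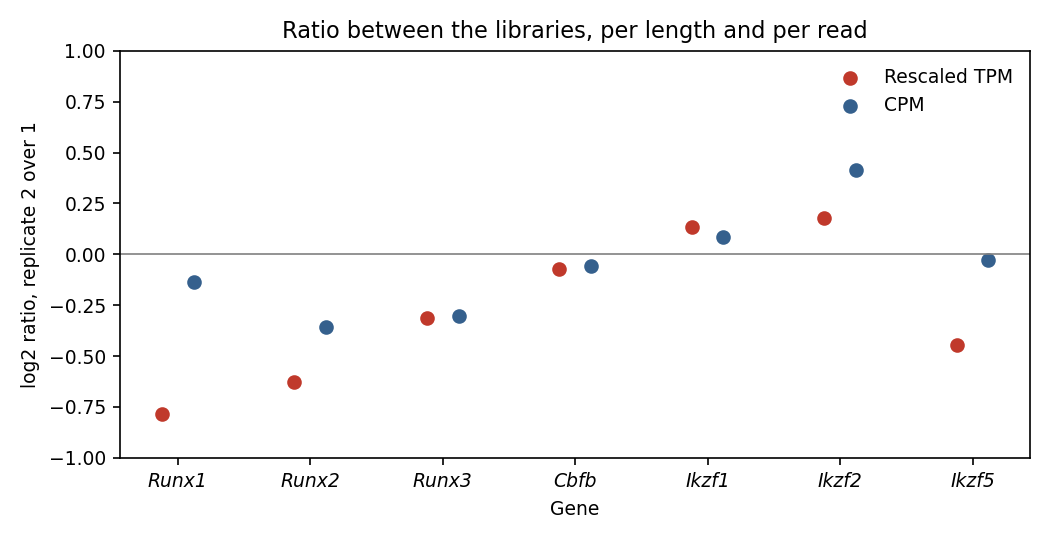
Log2 ratio of replicate 2 over replicate 1 for the 7 detected genes, on rescaled TPM (red) and on CPM (blue). Runx1, Runx2 and Ikzf5 lie further below 0 on rescaled TPM (-0.79, -0.63 and -0.45) than on CPM (-0.13, -0.36 and -0.03), and all points lie between -1 and 1.

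Over 10625 protein-coding genes that averaged 1 CPM or more, the ratio varied with the GC content of the leading transcript, with a median of 0.16 in the lowest quintile and -0.17 in the highest. Runx3-201, at 56.0% GC, lies in the highest quintile, and Cbfb-202, Ikzf2-201 and Ikzf5-201, at 42.5%, 40.1% and 40.3%, in the lowest. The ratios of Runx3 and Ikzf2 had the sign of their quintile and those of Cbfb and Ikzf5 did not. The part of GC content in the members' ratios was not tested.

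Several members overlap genes on the opposite strand, and the sources used here do not state whether counting used strand. Pstk, which overlaps Ikzf5, had 391 and 383 counts, and Supt3, which overlaps Runx2, had 458 and 531. Runx2os2 had 25 and 0 counts, Runx2os1 6 and 0, and Gm12000 at Ikzf1 and Gm29114 at Ikzf2 0 and 2 each. Runx2os3, Gm26626 at Runx1, Gm16224 at Runx3, Gm11999 at Ikzf1 and Gm26876 at Ikzf4 had 0 in both libraries, and Gm44624 at Ikzf5 was not analysed here. The counts of Supt3 were thus below those of Runx2, at 1404 and 1012, in both libraries. Without strand, reads of such pairs cannot be told apart where their exons overlap.

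Genes that work with the members were taken from lists of textbook partners and targets. Of 57 listed genes found in the tables, 44 were at or above 1 TPM in both libraries, against 40.8% of all nuclear protein-coding genes. Of 14 genes for partners of RUNX proteins found in the tables, 13 were, led by the corepressor genes Ncor1 at 58.2 ± 6.72 TPM (SD, n = 2), Sin3a at 25.9 ± 5.10 TPM and Aes at 22.1 ± 3.87 TPM. Runx1t1, known as the fusion partner of human RUNX1 in leukaemia, had 0 counts in both libraries. The list's median was 3.96 and 6.84 TPM in replicates 1 and 2.

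The NuRD chromatin-remodelling complex, which Ikaros proteins recruit, had 13 of 14 genes at or above 1 TPM in both libraries, with a median of 16.7 and 19.0 TPM. Its ATPase gene Chd4 was at 65.7 ± 11.1 TPM (SD, n = 2), the histone-binding Rbbp7 at 61.9 ± 10.8 TPM and the deacetylase Hdac2 at 39.2 ± 5.18 TPM. Chd5, known from brain and testis, was at 0 and 0.01 TPM. All 9 genes of Ikaros turnover and other Ikaros partners were at or above 1 TPM, led by the phosphatase subunit gene Ppp1ca at 92.9 ± 7.59 TPM, the ubiquitin ligase adaptor gene Ddb1 at 54.1 ± 5.94 TPM and the kinase gene Csnk2a1 at 20.2 ± 5.88 TPM. Among all nuclear protein-coding genes at or above 1 TPM in both libraries, the medians were 6.47 and 7.74 TPM.

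Of 10 textbook RUNX1 target genes, 7 were at or above 1 TPM in both libraries, against 40.8% of all nuclear protein-coding genes. The highest were the granule protein genes Mpo, at 2552 and 2288 TPM, and Elane, at 805 and 721 TPM, and the transcription factor gene Spi1, at 27.5 and 26.8 TPM. The T cell coreceptor gene Cd4 was at 0.08 and 0.15 TPM, and Cd8a and the cytokine gene Csf2 had 0 counts. The 3 below 1 TPM were thus genes known from T cells. Of 10 textbook Ikaros targets, most of them lymphoid genes, 2 were at or above 1 TPM in both libraries: Cd79b at 6.06 ± 1.94 TPM (SD, n = 2) and Notch1 at 1.79 ± 0.170 TPM. Flt3, a receptor of early progenitors, was at 0.92 and 1.72 TPM.

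The other 7 Ikaros targets were below 1 TPM in both libraries. Cdkn1a was at 0.64 and 0.30 TPM, Vpreb1 at 0.69 and 0 TPM, Igll1 at 0.30 and 0.14 TPM, and Dntt at 0.15 and 0.26 TPM. Il7r was at 0 and 0.06 TPM, Hes1 at 0.01 and 0 TPM, and Rag1 had 0 counts. The Ikaros gene itself, at 10.04 and 13.2 TPM, was above each of its 10 listed targets in both libraries.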

How the data were processed

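Total RNA of 2 libraries was analysed from tables the authors deposited. Per the file headers these hold expected counts per gene and transcript (not always whole, since reads that fit several features are divided), TPM, FPKM, posterior means and credibility bounds in TPM. A column of the deposited transcript tables gives, in percent, how much of its gene's TPM a transcript holds. Per the labels' protocols, libraries were made with a ScriptSeq kit from 100 ng of RNA, with a size range of 200 to 712 in replicate 1 and 200 to 1000 in replicate 2. The deposited notes name assembly mm10 and GENCODE M4. Neither aligner nor quantifier is named there (not given in the sources used here).

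Names, coordinates and coding sequences came from GENCODE M21 by identifier (42462 of 43346 genes and 58 of the members' 65 transcripts matched, with 1 of 8 for Ikzf4). Promoter windows came from RefSeq. Finger patterns are matches to Cys-x2-4-Cys-x12-His-x2-5-His or Cys in translated coding sequence. Ratios between libraries were taken on log2 CPM (prior count 2) after TMM scaling (factors 0.985 and 1.02) in edgeR 4.0.16, on rounded expected counts. Their script was tested on simulated data. Scripts ran in R 4.3.3 and Python 3.11.15 with Biopython 1.88 and pandas 2.3.3.

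Members, lists and alternatives were chosen with earlier results of these data known. All members are named, and transcripts with a mean of at least 10% of a detected gene. Each list's 3 highest genes and those below 1 TPM in both libraries are named, as are genes on a member's opposite strand. Prmt1 had no match. With 1 group of 2 libraries, values were described and nothing was tested.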

Additional observations from a re-analysis of the deposited data

How the results depend on the processing

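Of 45 alternative values of the main results, leaving out 1 library not counted, 36 stayed within the spread between the libraries (counts within 1.5 times) and 9 moved. None of the log2 contrasts changed sign in the mean of the 2 libraries. Runx1 over Runx2 plus Runx3, at 1.63 (log2), was 1.11 with a pseudocount of 1 TPM, 1.43 on posterior mean TPM and 1.18 on coding transcripts only. Ikzf1 over the rest of its family, at 0.45, was 0.013 ± 0.24 with a pseudocount of 1 TPM, which adds 1 to each of the 4 other genes. With that pseudocount the sign of the Ikzf1 contrast differed between the libraries. The Runx1 distal share, at 66.5%, was 50.5% when starts within 100 bases were joined, which sets Runx1-204 apart. The Runx2 distal share, at 21.1%, was 25.1% of posterior mean TPM and 27.7% of counts. The Runx3 distal share, at 99.6%, was 78.4% of posterior mean TPM. Runx3 models under 1000 nt, all at 0 counts, held 19.0% and 21.8% of posterior mean TPM in replicates 1 and 2. The proximal Runx3-202 held 1.72% and 0.575%. The cause was not tested. Ikzf1 transcripts with 6 finger patterns held 97.7% of counts, against 81.5% of TPM. In replicate 2 or replicate 1 alone, which with 2 libraries always lies within 1 SD of the mean, the Runx1 contrast ranged from 1.49 to 1.77, Cbfb over the Runx genes from 1.12 to 1.77 and the Ikzf1 contrast from 0.28 to 0.63. At 2 TPM 5 members remained detected. Over transcripts of at least 1000 nt, chosen after seeing the data, Runx2 had a mean of 1.69 TPM and Ikzf5 4.13 TPM, and Runx3 on posterior means 1.74 TPM. With DESeq2 1.42.0 size factors, no member passed 1 in log2 ratio. No paired analysis was possible because the series has 1 group. Depth limits Ikzf3 and Ikzf4, whose 0 counts allow up to 3.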
